A study of Mus musculus with 28 samples.

Results

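The 5 genes described here, Entpd1, Nt5e, Cd38, Adora2a and Ada, encode CD39, CD73, CD38, the adenosine A2A receptor and adenosine deaminase. They were taken by name as the listed CD39, CD73, CD38 and adenosine genes, out of 21986 genes named in the bulk count tables, and all 5 had enough counts to be tested in both bulk experiments. The RNA came from CD8+ T cells that had infiltrated MC38-OVA tumours (TILs) in wild-type C57BL/6 mice, MC38-OVA being a line of mouse colon carcinoma that makes ovalbumin. For the subset experiment no treatment of the mice is named, and their PD-1-CD8+ TILs were sorted as naive-like (6 libraries), memory-like (5 libraries) and effector-like (3 libraries), with gates that included Slamf7 (absent on naive-like and high on the other cells) and CX3CR1 (present on effector-like cells alone). In the treatment experiment, cells negative for Tim-3 and PD-1 (DN) or positive for both (DP) were sorted on day 12 after implantation. The mice had received antibodies to PD-1 and Tim-3 together (blockade) or isotype control antibodies, and each of the 4 groups had 3 libraries. A single-cell library was also made from DN cells after each treatment, 1 per treatment. The age and sex of the mice are not in the labels, nor is it said whether libraries came from single or pooled animals, and for effector-like replicates 1 and 2 the library name lists 3 numbers, which may mark pools. The p-values below therefore measure only the spread between these libraries, which may be technical.

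CD39 and CD73 are enzymes of the cell surface that act in sequence. CD39 breaks extracellular ATP and ADP down to AMP, and CD73 turns AMP into adenosine. CD38 consumes NAD and feeds a parallel route to AMP. Adenosine that reaches the A2A receptor raises cyclic AMP in T cells and dampens their activation, whereas adenosine deaminase removes adenosine by turning it into inosine. In tumours CD39 is known as a marker of chronically stimulated CD8+ T cells, and CD73 is known from naive and memory T cells.

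RefSeq's promoter table (GRCm38.p6) held start sites for 4 of the 5 genes, and Adora2a was not matched. The 250 bases before the start are shown for Entpd1, which has 2 start sites in the table, and for Nt5e, because these transcripts differed in opposite directions between the sorted populations below. Each sequence runs 5' to 3' on the gene's strand, and capitals mark matches to 1 of 9 motifs searched on both strands.
Entpd1, upstream start, chr19:40612116-40612365, plus strand: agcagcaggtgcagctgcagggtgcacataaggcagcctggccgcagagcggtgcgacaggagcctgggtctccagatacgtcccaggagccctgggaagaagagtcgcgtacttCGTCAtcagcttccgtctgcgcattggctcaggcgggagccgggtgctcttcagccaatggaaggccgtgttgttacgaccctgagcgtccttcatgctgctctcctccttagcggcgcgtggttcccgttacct
Entpd1, downstream start, chr19:40659520-40659769, plus strand: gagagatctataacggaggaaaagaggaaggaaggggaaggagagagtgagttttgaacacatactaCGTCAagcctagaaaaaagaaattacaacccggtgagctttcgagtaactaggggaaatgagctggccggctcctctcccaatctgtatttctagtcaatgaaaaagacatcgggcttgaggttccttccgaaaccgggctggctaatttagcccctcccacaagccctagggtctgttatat
Nt5e, chr9:88327359-88327608, plus strand: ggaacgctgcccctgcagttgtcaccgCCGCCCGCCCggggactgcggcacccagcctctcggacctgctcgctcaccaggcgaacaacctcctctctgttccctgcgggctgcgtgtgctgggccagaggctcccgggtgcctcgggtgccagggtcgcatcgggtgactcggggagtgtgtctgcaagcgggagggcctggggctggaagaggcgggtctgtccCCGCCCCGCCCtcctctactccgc
Both Entpd1 windows held 1 match to the cAMP response element half-site TGACG, on the minus strand, 135 bases before the upstream start and 183 bases before the downstream one. The Nt5e window held 4 matches to the SP1/KLF motif GGGCGG, which overlap in pairs, and 72% of its bases were G or C, against 62.4% and 47.2% in the Entpd1 windows. TGACG occurred in 17.8% and GGGCGG in 32.7% of the 32851 windows of this length in the table. The Ada window held 1 GGGCGG and 2 matches to the ETS motif CCGGAAG, found in 6.91% of windows, and the Cd38 window matched none of the 9 motifs. The other motifs were TGACTCA (AP-1, in 4.46% of windows), ACGTG (hypoxia response core, 16.6%), CACGTG (E-box, which contains ACGTG, 6.02%), TGTGGTT (RUNX, 4.4%), CTTTGA (TCF/LEF, 13.8%) and TCACACC (T-box, 3.33%). None of these had a match in the windows of the 4 genes. A match describes the letters only, since no binding was measured here.

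Bulk libraries held 5027112 to 7978200 expected counts in the subset and 8005818 to 13579262 in the treatment experiment, and levels are given as CPM, counts scaled to library size. A count of 3 corresponded to at most 0.586 CPM in any library. The sorted genes followed the gates in the treatment experiment: Pdcd1 (PD-1) averaged 33.2 CPM in DN isotype and 555 in DP isotype, and Havcr2 (Tim-3) 3.91 and 274. In the subset experiment Cx3cr1 averaged 1.61, 12.7 and 308 CPM and Slamf7 23.2, 82.6 and 179 in naive-like, memory-like and effector-like cells. Cd8a and Cd3e were at 216 CPM or more in every library. Markers of plasmacytoid dendritic cells (22 genes) had a summed level of 4090 to 5570 CPM (DN isotype), 3170 to 3870 (DN blockade), 1020 to 1170 (DP isotype) and 1190 to 1520 (DP blockade), and their defining gene Siglech averaged 581, 273, 3.59 and 0.455. Myeloid markers (23 genes in the tables) summed to 650 to 875 CPM (DN isotype), 390 to 888 (DN blockade), 558 to 754 (DP isotype) and 716 to 1210 (DP blockade). Lyz2 averaged 2.63, 49.4, 119 and 186 CPM in the same group order. In the subset experiment plasmacytoid markers had a summed level of 381 to 1420 CPM (naive-like), 1020 to 4080 (memory-like) and 456 to 1340 (effector-like). On principal components, naive-like replicate 4 and memory-like replicate 2 stood apart from their groups, and naive-like replicate 6 lay among other subsets. Without these 3 libraries together, every call and every missed call of the 5 genes between subsets was kept. Differences below are log2 fold changes ± SE from edgeR's quasi-likelihood test, with Benjamini-Hochberg adjusted p and 95% intervals, and a call means an adjusted p under 0.05. Fewer cells of a type and less RNA per cell cannot be told apart in these bulk samples.

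**Figure D1:**
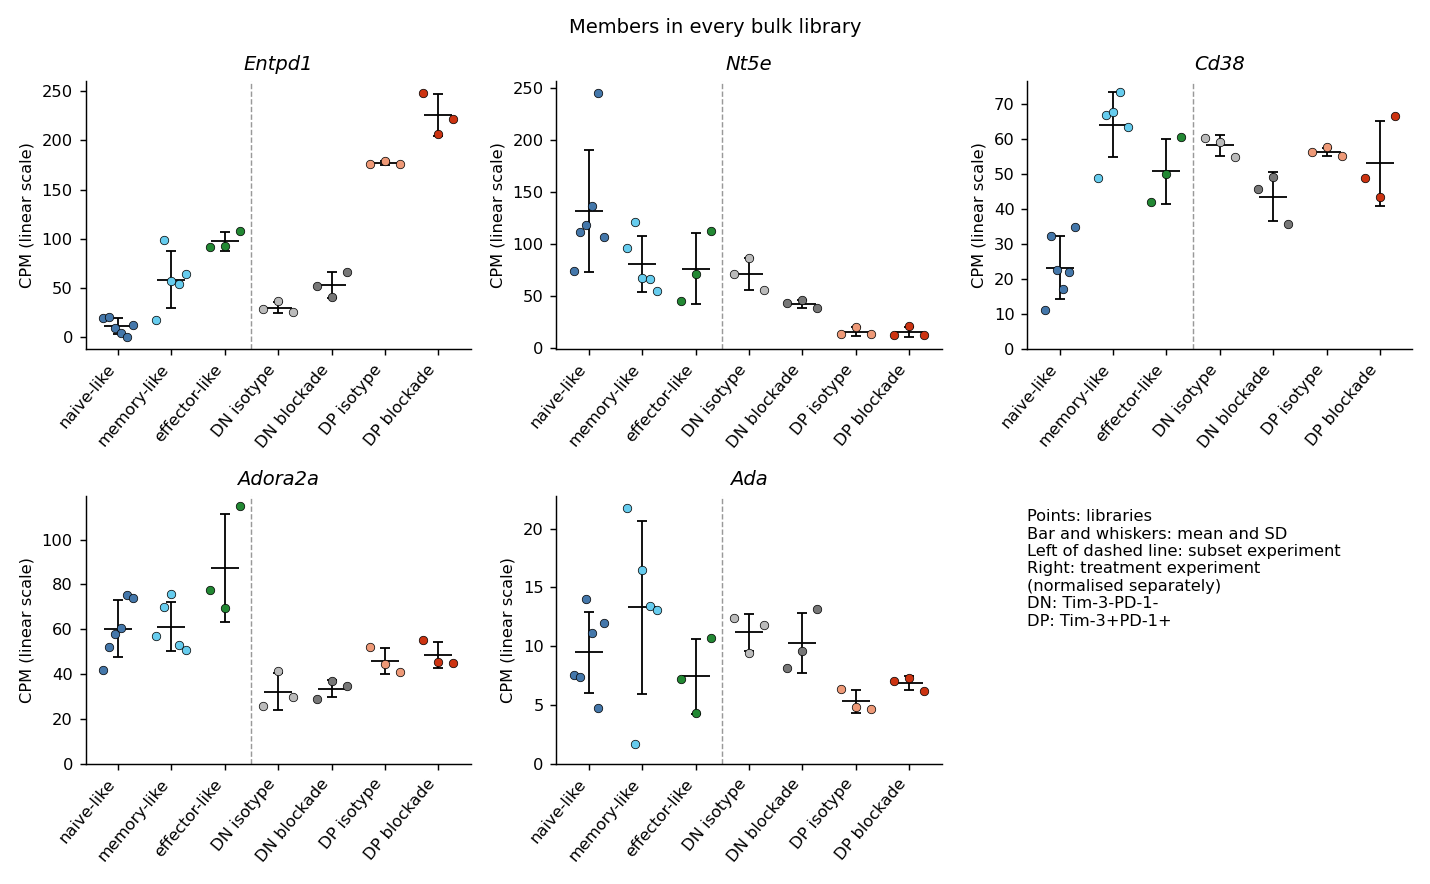
CPM (linear axes) of each gene in every bulk library, with the mean and SD of each group; the dashed line separates the subset from the treatment experiment, which were normalised separately. Entpd1 reached 176 CPM or more in every DP library and at most 20.1 in the naive-like libraries, whereas Nt5e was highest in a naive-like library (245) and at most 21.2 in DP libraries.

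Entpd1 (CD39) was higher in effector-like and memory-like than in naive-like cells. By library name the naive-like group has its own date. In this and every other difference from naive-like cells, date and subset cannot be told apart. In naive-like cells Entpd1 was measured at 0 CPM in the lowest, 10.6 at the median and 20.1 in the highest of 6 libraries. The library at 0 was naive-like replicate 4, where a count of 0 allows up to 0.49 CPM. Memory-like libraries held 64.5, 98.4, 54.3, 17 and 57.1 CPM (replicates 1 to 5), and effector-like libraries 92.5, 91.4 and 108. Effector-like libraries all lay above the naive-like ones, while memory-like replicate 4 fell inside the naive-like range. Effector-like cells thus held 97.3 ± 9.39 CPM (SD, n = 3) against 10.7 ± 8.18 (n = 6) in naive-like cells, a log2 fold change of 3.18 ± 0.71 (SE, edgeR quasi-likelihood adjusted p = 0.0124). Memory-like cells held 58.2 ± 29 CPM (n = 5) and were above naive-like cells by 2.44 ± 0.65 (adjusted p = 0.0393). That second call was lost without any 1 of naive-like replicates 1, 5 and 6 or memory-like replicates 1, 2, 3 and 5, with adjusted p of 0.0115 to 0.218 over the alternatives. Between effector-like and memory-like cells, the difference of 0.74 had a 95% interval of -0.82 to 2.3 and was not called (adjusted p = 0.81). Markers of CD4 and regulatory T cells (8 genes) had a summed level of 58.7 to 142 CPM (naive-like), 168 to 301 (memory-like) and 79.7 to 113 (effector-like), and 4 of 8 were higher in memory-like than in naive-like cells (list median 1.55). Foxp3, the defining gene of regulatory T cells, was at 17.6, 13.2, 0, 1.97 and 0 CPM in memory-like replicates 1 to 5, at 0 in 4 of 6 naive-like libraries and at 0 in all effector-like ones. The part of these markers in the Entpd1 differences was not tested.

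The same gene separated DP from DN cells in the treatment experiment. DN isotype libraries held 28.4, 36.4 and 24.9 CPM of Entpd1, and DN blockade libraries 51.5, 40.7 and 66.3. DP isotype libraries held 176, 179 and 176, and DP blockade libraries 248, 207 and 222. No 2 of these groups overlapped, in the order DN isotype, DN blockade, DP isotype and DP blockade. DP cells exceeded DN cells by 2.56 ± 0.18 after isotype (5.92-fold, adjusted p = 1.15e-06) and by 2.09 ± 0.17 after blockade (4.26-fold, adjusted p = 6.26e-06), and both calls held in all 7 other fits run and without any 1 of the 6 libraries. Markers of CD4 and regulatory T cells moved with this comparison. Their summed level was 212 to 280 CPM (DN isotype), 186 to 311 (DN blockade), 468 to 607 (DP isotype) and 485 to 675 (DP blockade), and 6 of 8 were higher and 1 lower in DP cells after isotype (list median 1.88), and 5 higher and 1 lower after blockade (1.73). Foxp3 averaged 1.08, 2.79, 10.4 and 23.7 CPM in that group order, while Cd4 was the lower gene, at 134, 64.6, 2.4 and 7.47. The part of these markers in the differences between DP and DN cells was not tested.

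Blockade was accompanied by more Entpd1 in DN cells, 52.8 ± 12.8 against 29.9 ± 5.88 CPM (n = 3 each), a difference of 0.83 ± 0.17 (adjusted p = 0.0424). The call depended on the fit. With the replicate number of the title as a block it was 0.82 (adjusted p = 0.0819), and in the DN libraries alone with that block, a fit added after the data were seen, it was 0.84 (adjusted p = 0.151). It was also lost without DN isotype replicate 1 or 3 and without DN blockade replicate 1 or 3 (differences of 0.63 to 0.99 over all 6 omissions, adjusted p of 0.000429 to 0.212 over the alternatives). In DP cells the difference was 0.35 ± 0.16 with an interval of 0 to 0.7 and was not called (adjusted p = 0.699), although the groups did not overlap, as was the case for 16.6% of all genes tested. The blockade effect in DP minus that in DN cells was -0.47 (interval -0.98 to 0.04, adjusted p = 0.619), so a difference between the populations was not shown. Red cell markers (8 genes in the tables) moved with treatment, from a summed 2720 to 5330 CPM (DN isotype) to 9.74 to 127 (DN blockade) and from 1410 to 3300 (DP isotype) to 4.39 to 16.7 (DP blockade). Of the 8, 6 were lower after blockade in DN cells (list median -6.64) and 4 in DP cells (-7.46), and their part in the treatment differences was not tested.

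Myeloid cells also carry CD39, and Lyz2 was 3.68, 1.63 and 2.58 CPM in DN isotype and 45.4, 88.7 and 14.1 in DN blockade libraries. Of 23 myeloid markers tested, 3 were higher and 0 lower after blockade in DN cells (list median 0.84), beside 1.12% of all genes called. In DP cells 0 were called (list median 0.62), beside 0.0629% of all genes. In the single-cell cluster of myeloid-like cells described below, 3896 Lyz2 UMIs stood beside 39 Entpd1 UMIs. DP isotype libraries held 108 to 136 and DP blockade libraries 121 to 252 CPM of Lyz2. Of the 23 myeloid markers, 9 were higher and 4 lower in DP than in DN cells after isotype (list median 2.05). After blockade 8 were higher and 3 lower (1.39). Of all genes tested, 15% were higher and 14.8% lower after isotype, and 14.4% and 12.5% after blockade. The part of Lyz2 and the other myeloid markers in the Entpd1 differences was not tested. In the subset experiment Lyz2 was at 0 in effector-like replicates 2 and 3, where Entpd1 was at 91.4 and 108 CPM. It was also at 0 in 4 of 5 memory-like libraries, while naive-like libraries ranged from 0 to 641 CPM. The myeloid markers as a list still summed to 528 and 607 CPM in effector-like replicates 2 and 3. By group they summed to 62 to 1850 CPM (naive-like), 195 to 1630 (memory-like) and 528 to 1890 (effector-like). Their part in the Entpd1 differences between subsets was not tested.

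Nt5e (CD73) was lower in DP than in DN cells and was not called between the subsets. Naive-like libraries held 74.3 CPM in the lowest, 115 at the median and 245 in the highest, memory-like libraries 55.1, 121, 66.4, 96.6 and 67.7, and effector-like libraries 71.2, 45.1 and 113. The 3 groups overlapped, and the differences from naive-like cells of -0.79 (effector-like, adjusted p = 0.255) and -0.7 (memory-like, adjusted p = 0.211) were not called. Effector-like and memory-like cells differed by -0.09, with an interval of -0.86 to 0.69 (adjusted p = 0.973).

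In the treatment experiment DN isotype libraries held 71.3, 86.4 and 55.6 CPM of Nt5e and DN blockade libraries 43.9, 46.3 and 38.7. DP isotype libraries held 13.6, 20.8 and 13.4, and DP blockade libraries 12.9, 21.2 and 13.1. DP cells were below DN cells by -2.16 ± 0.24 after isotype (adjusted p = 3.57e-05) and by -1.45 ± 0.24 after blockade (adjusted p = 0.000772), and both calls held in the 7 other fits run and without any 1 library. The DP libraries overlapped between treatments, with a difference of -0.01 (interval -0.53 to 0.5, adjusted p = 0.998). All DN blockade libraries lay below all DN isotype libraries, but the difference of -0.73 ± 0.23 was not called (adjusted p = 0.152). The blockade effects in DP and DN cells differed by 0.71 (interval 0 to 1.42, adjusted p = 0.593). Siglech was likewise lower in every DN blockade library, at 561, 725 and 459 CPM in isotype and 214, 361 and 243 in blockade, and its part in the Nt5e difference was not tested.

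Because the deposited normalised signal is scaled per length of transcript, it allows Entpd1 and Nt5e to be set against each other within a library. The ratio of Entpd1 to Nt5e signal ranged from 0 to 0.225 among naive-like libraries, from 0.15 to 0.999 among memory-like and from 0.813 to 1.73 among effector-like ones. Among DN libraries it ranged from 0.339 to 0.382 with isotype and from 0.75 to 1.46 with blockade, and among DP libraries from 7.32 to 11.2 and from 8.34 to 16.4. Nt5e exceeded Entpd1 in all naive-like, memory-like and DN isotype libraries and Entpd1 exceeded Nt5e in all DP libraries, while effector-like and DN blockade libraries lay on both sides of 1. Memory-like replicate 4, at 0.15, lay inside the naive-like range. The DN isotype and DN blockade ranges did not overlap.

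**Figure D2:**
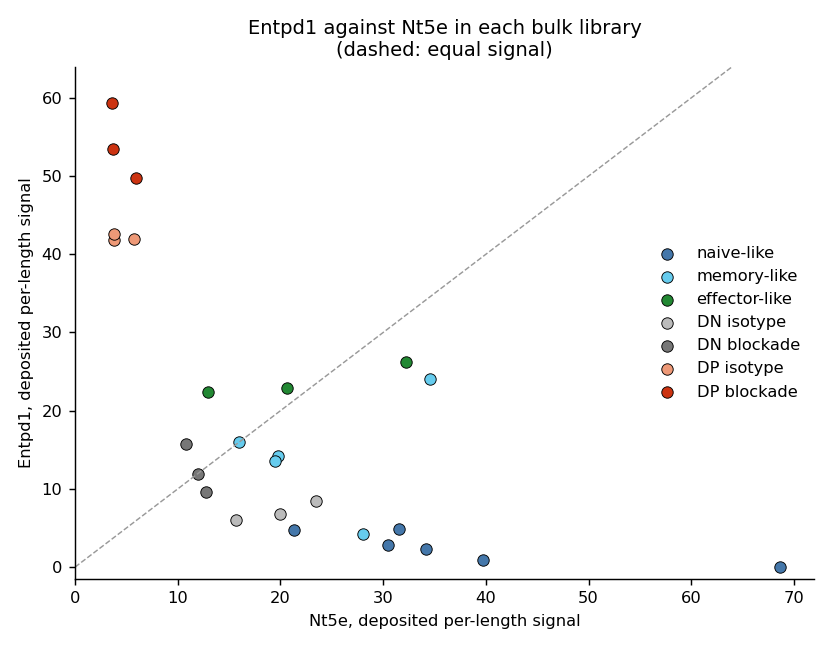
Deposited per-length signal of Entpd1 (y axis) against Nt5e (x axis) in each bulk library, 1 point per library, coloured by group, with a dashed line at equal signal; the subset and treatment tables were normalised separately. DP libraries lie at the upper left (Entpd1 signal 41.8 or more), naive-like libraries along the bottom (4.81 or less) and DN isotype libraries below the line.

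Cd38, the NAD glycohydrolase, was higher in memory-like and effector-like than in naive-like cells and was not called between DP and DN cells. Naive-like libraries held 11.2 CPM in the lowest, 22.3 at the median and 34.8 in the highest. Memory-like libraries held 63.4, 67, 73.5, 48.9 and 67.9 CPM and effector-like libraries 50, 41.9 and 60.5, all above the naive-like range. Memory-like cells exceeded naive-like cells by 1.46 ± 0.25 (2.75-fold, adjusted p = 0.00351) and effector-like cells did by 1.12 ± 0.28 (2.18-fold, adjusted p = 0.0244). With the library name number as a block, the memory-like difference was 1.48 and not called (adjusted p = 0.0595). The effector-like call was lost without effector-like replicate 1 (adjusted p = 0.0784) or 3 (adjusted p = 0.114), within a range of 0.0046 to 0.114. Effector-like and memory-like cells differed by -0.34 (interval -0.98 to 0.3, adjusted p = 0.774).

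DN isotype libraries held 60.3, 59.3 and 54.9 CPM of Cd38 and DP isotype libraries 56.4, 57.7 and 55.2, a difference of -0.04 with an interval of -0.38 to 0.29 (adjusted p = 0.866). DN blockade libraries held 45.8, 49.1 and 35.8, all below DN isotype, but the difference of -0.42 ± 0.16 was not called (adjusted p = 0.22). DP blockade libraries spread from 43.6 to 66.7 CPM around the DP isotype values. After blockade DP and DN cells differed by 0.28 (interval -0.05 to 0.62, adjusted p = 0.2), so a difference in Cd38 between DP and DN cells was not shown in either treatment.

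Adora2a, the A2A receptor gene, was not called between subsets and was higher in DP than in DN cells. Naive-like libraries held 41.7 CPM in the lowest, 59.2 at the median and 75.4 in the highest, memory-like libraries 50.7, 69.7, 52.8, 57.1 and 75.7, and effector-like libraries 69.6, 77.5 and 115. Effector-like cells averaged 87.2 ± 24 CPM, and their differences of 0.51 from memory-like (adjusted p = 0.377) and 0.53 from naive-like cells (adjusted p = 0.177) were not called. Memory-like and naive-like cells differed by 0.02 (interval -0.38 to 0.42, adjusted p = 0.969).

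DN isotype libraries held 25.6, 41.3 and 29.9 CPM of Adora2a, DN blockade libraries 29.1, 36.7 and 34.7, DP isotype libraries 52.1, 44.5 and 40.9, and DP blockade libraries 55.2, 45.5 and 45.1. DP cells exceeded DN cells by 0.51 ± 0.18 after isotype (1.42-fold, adjusted p = 0.0455), where DN isotype replicate 2 lay inside the DP range, and by 0.54 ± 0.17 after blockade (1.45-fold, adjusted p = 0.038), with no overlap. Both calls were marginal. The isotype call was lost without any library other than DN isotype replicate 2 (adjusted p of 0.00583 to 0.133 over the alternatives) and the blockade call without any library other than DP blockade replicate 3 (0.0176 to 0.129). With the replicate number of the title as a block the adjusted p was 0.0584 and 0.0529. Blockade moved Adora2a by 0.05 in DN (interval -0.33 to 0.44) and by 0.09 in DP cells (interval -0.29 to 0.46), neither called.

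Ada, which clears adenosine, was lower in DP than in DN cells after isotype. Naive-like libraries held 4.73 to 14 CPM with a median of 9.32, memory-like libraries 13.1, 1.66, 13.4, 21.8 and 16.5, and effector-like libraries 4.33, 7.25 and 10.7, with all 3 groups overlapping and no difference called. DN isotype libraries held 12.4, 9.45 and 11.8 CPM and DP isotype libraries 6.39, 4.83 and 4.69. DP cells were below DN cells by -1.08 ± 0.24 after isotype (2.12-fold, adjusted p = 0.00441), a call that held without any 1 library. After blockade DN libraries held 8.19, 9.62 and 13.2 and DP libraries 7.05, 7.33 and 6.21, and the difference of -0.59 ± 0.23 was not called (adjusted p = 0.0832). Blockade itself moved Ada by -0.12 in DN and by 0.37 in DP cells, neither called.

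**Figure D3:**
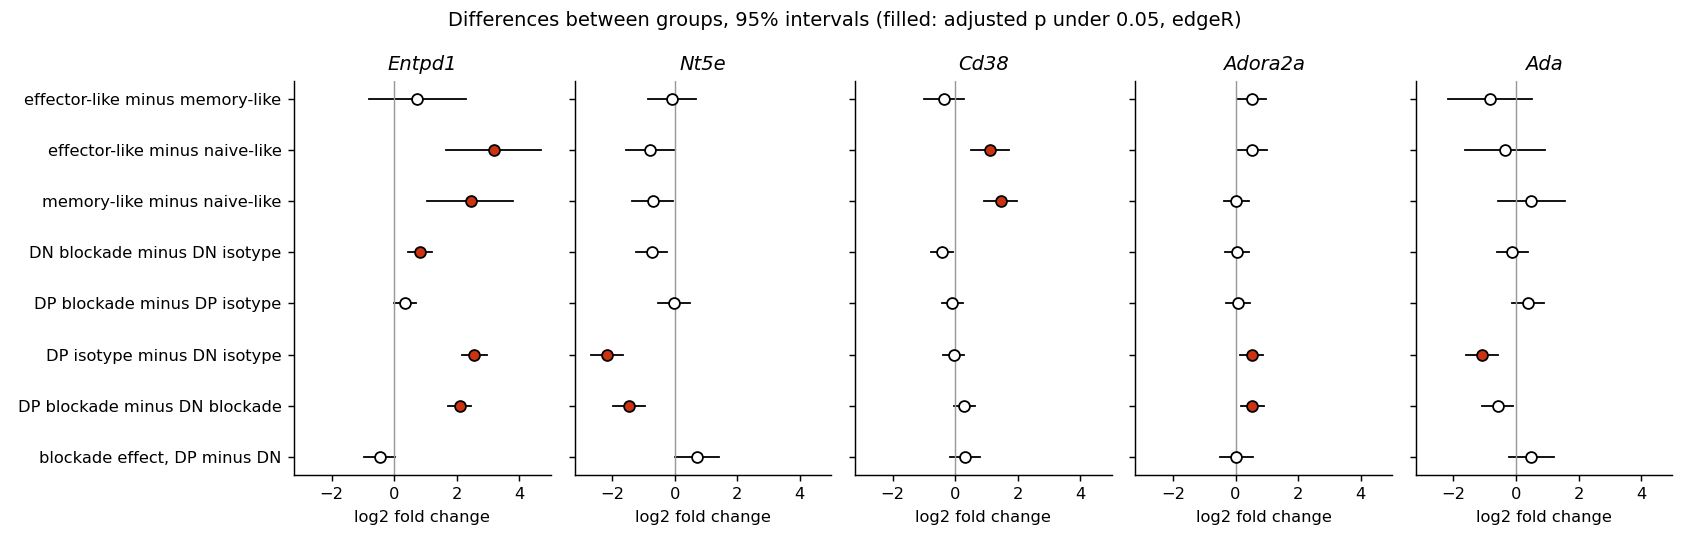
Log2 fold change (x axis) with its 95% interval for each gene in each comparison (y axis), filled where the edgeR adjusted p was under 0.05; the last row is the blockade effect in DP minus that in DN cells. Filled points stand to the right for Entpd1 in 5 comparisons and to the left for Nt5e in both DP against DN comparisons (-2.16 and -1.45).

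Read against all genes, 0 of the 5 were called between effector-like and memory-like cells, where 1.91% of all tested genes were. Between effector-like and naive-like cells 2 were called (6.42% of all genes), and between memory-like and naive-like cells 2 (5.51%), in each case Entpd1 and Cd38. In DN cells 1 was called after blockade (1.12%), in DP cells 0 (0.0629%), and for the difference of both effects 0 (0%). That last count covers all 12710 genes in edgeR, of which 1070 had an unadjusted p under 0.05, while DESeq2 called 97 genes and no member. An unadjusted edgeR p under 0.05 was found for 1 member between effector-like and memory-like cells (Adora2a, 0.0362), for 0 in DP cells and for 1 in the difference of both effects (Nt5e, 0.0499), and DESeq2 called no member in these 3 comparisons. Between DP and DN cells 4 were called after isotype (29.9%) and 3 after blockade (27%), so a large part of all genes differed there too: 15% were higher and 14.8% lower in DP cells after isotype, and 14.4% and 12.5% after blockade. Groups of libraries did not overlap for 2 members between effector-like and naive-like cells (12.9% of all genes) and for 1 between memory-like and naive-like cells (5.76%). They did not overlap for 3 members between treatments in DN cells (16.7%), for 1 in DP cells (16.6%), and for 3 and 4 between DP and DN cells after isotype and blockade (43.9% and 44.4%).

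Compared on the per-length signal, the gene with the highest level changed with the population. In naive-like cells the mean signal was 37.7 for Nt5e, 24.3 for Adora2a, 7.95 for Cd38, 5.71 for Ada and 2.62 for Entpd1. In effector-like cells Adora2a led with 35.3, before Entpd1 with 23.8, Nt5e with 21.9, Cd38 with 17.4 and Ada with 4.48. In DN isotype cells Nt5e (19.7 ± 3.94) and Cd38 (19.3 ± 0.865) did not differ beyond their SD, and Adora2a (12.6), Entpd1 (7.05) and Ada (6.56) followed. In DP isotype cells Entpd1 led with 42.1, followed by Cd38 with 18.8 and Adora2a with 18.1, and Nt5e (4.44) and Ada (3.11) came last.

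Of 10 ectonucleotidase genes tested beside the members, 1 was higher, 5 were lower and 4 were not called in DP against DN cells after isotype, with a list median of -0.66 against 0 for all genes. After blockade 1 was higher, 2 were lower and 7 were not called. Of all genes tested, 15% were higher and 14.8% lower in DP cells after isotype, and 14.4% and 12.5% after blockade. Entpd7, an intracellular relative of CD39, was the higher one in both (0.63 ± 0.21 and 0.78 ± 0.21). Enpp4, a phosphodiesterase of the cell surface, averaged 4.47 ± 2.76 CPM in DP and 23.3 ± 3.71 in DN isotype cells (-2.38 ± 0.38, adjusted p = 0.000488), and differed by -1.59 ± 0.37 after blockade. Acpp, a phosphatase that can also make adenosine from AMP, averaged 4.72 ± 1.15 and 18.5 ± 1.49 CPM after isotype (-1.97 ± 0.26). It was also lower in effector-like (2.29 ± 2.39) than in naive-like cells (26.5 ± 8.85), by -3.52 ± 0.61 (adjusted p = 0.00179), the direction taken by Nt5e without a call there. Entpd5 was lower in effector-like cells too (-1.12 ± 0.3), and these were 2 of 9 genes tested, beside 6.42% of all genes called in that comparison.

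Of 11 receptors for extracellular nucleotides tested, 6 were lower and 0 higher after isotype (list median -1.07), and 5 lower and 0 higher after blockade (list median -0.98), all 5 being among the 6, beside 14.8% and 12.5% of all genes lower. P2rx7, the ATP-gated channel that NAD-dependent ribosylation can also open, averaged 2.51 ± 0.158 CPM in DP and 19.4 ± 3.26 in DN isotype cells (-2.94 ± 0.29, adjusted p = 1.65e-05). P2ry13, an ADP receptor, averaged 1.8 ± 0.512 and 20.5 ± 5.57 (-3.51 ± 0.33). P2ry14 and P2rx4 each differed by -1.48. Plasmacytoid markers were also higher in DN cells, as given above, and their part in these differences was not tested. In the subset experiment P2rx7 was higher in memory-like (29.2 ± 19.9 CPM) than in naive-like cells (3.88 ± 4.36; 2.9 ± 0.74, adjusted p = 0.0329), with overlapping groups, and was 1 of 12 tested. P2rx4 was lower in effector-like than in naive-like cells (-1.38 ± 0.38), also 1 of 12. Of all genes, 5.51% were called between memory-like and naive-like cells and 6.42% between effector-like and naive-like cells. Of the NAD and ADP-ribose list, 2 of 14 were lower in DP isotype cells: Art2b, an ADP-ribosyltransferase of the T cell surface (0.44 ± 0.0516 against 7.67 ± 1.37 CPM, -4.09 ± 0.63), and Nmnat2, an NAD synthesis enzyme (-1.51 ± 0.52). Both were lower after blockade as well, where 1 other gene of this list was higher. Of all genes tested, 14.8% were lower after isotype, and 12.5% were lower and 14.4% higher after blockade.

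Genes of adenosine uptake and clearance divided. Of 22 tested, 6 were higher and 6 lower in DP isotype cells, and 7 higher and 2 lower in DP blockade cells, with list medians of 0.13 and 0.11. Beside these, 15% of all genes tested were higher and 14.8% lower after isotype, and 14.4% and 12.5% after blockade. The purine salvage enzyme gene Hprt (171 ± 12.7 against 107 ± 8.26 CPM, 0.67 ± 0.09) and the nucleoside transporter gene Slc29a1 (0.58 ± 0.12) were higher in DP isotype cells, and the nucleoside kinase gene Dck was higher in DP blockade cells (1.05 ± 0.13). The adenosine kinase gene Adk was lower (15.3 ± 5.59 against 34.2 ± 3.01 CPM, -1.16 ± 0.23), as was the lysosomal transporter Slc29a3 (-1.72 ± 0.18). Adk was also lower than in naive-like cells (68.6 ± 23.4 CPM) in effector-like cells (13 ± 3.52, -2.39 ± 0.39, adjusted p = 0.00117) and in memory-like cells (27.1 ± 9.16, -1.34 ± 0.3). Ada and Adk, the enzymes that remove adenosine by separate routes, were thus both lower in DP than in DN cells after isotype.

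Downstream of the A2A receptor, 8 of 25 genes tested in the cyclic AMP list were lower and 2 higher in DP isotype cells (list median -0.38), and 4 lower and 2 higher in DP blockade cells (-0.2). Pde2a, a phosphodiesterase that degrades cyclic AMP, averaged 2.97 ± 0.847 CPM in DP and 272 ± 44.8 in DN isotype cells (-6.53 ± 0.39, adjusted p = 6.47e-07) and 6.36 ± 0.864 and 160 ± 73.5 after blockade (-4.65 ± 0.35). It was also lower in effector-like (181 ± 12.3, -1.91 ± 0.22) and memory-like cells (226 ± 36.5, -1.58 ± 0.18) than in naive-like cells (677 ± 195). Rapgef4, a cyclic AMP sensor, was lower in the same 4 comparisons, by -1.97, -1.89, -2.62 and -1.59. Pde7a, another phosphodiesterase, was lower in DP cells (-0.73 ± 0.12 and -0.95 ± 0.12), whereas the protein kinase A subunit Prkar1a was higher (0.36 ± 0.07 and 0.28 ± 0.07). Across the 5 lists, 9 of 82 genes were higher and 27 lower in DP isotype cells, and 11 higher and 15 lower in DP blockade cells, beside 15% and 14.8%, and 14.4% and 12.5%, of all genes tested. The share of the lists that was higher lay under that of all genes after isotype and near it after blockade. The share that was lower lay above that of all genes in both, and no test of the lists as sets was made. The 2 comparisons share no library, and 7 genes were higher and 15 lower in both, that is 77.8% and 55.6% of the isotype calls and 63.6% and 100% of the blockade calls. Over all 12710 genes tested the shares were 68.8% and 60.1%, and 71.6% and 71.2%. edgeR called 0 genes of these lists after blockade in DN or in DP cells, or between effector-like and memory-like cells, where 16 of 82, 7 of 82 and 7 of 78 had an unadjusted p under 0.05.

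The genes whose log2 CPM ran most like each member over the libraries of an experiment are given as a description, since all share the libraries and the group differences. Over the 12 treatment libraries Entpd1 ran with Tbc1d7, Ctsd and Osbpl3 (Pearson r of 0.99 each), and Nt5e with Gm5086, Hs3st1 (0.99 each) and Ldlrad4 (0.98). Adora2a ran with Ccdc25 (0.95), Myl4 and Tmem254b, Ada with Rbfa (0.94), Ninj1 and Snn, and Cd38 with Larp4b (0.89), Tfdp2 and Ube2cbp. Over the 14 subset libraries Entpd1 ran with Necap2 (0.96), Prdm1 (0.95), which encodes the transcriptional repressor Blimp-1, and Prc1 (0.94). Nt5e ran with Ugcg (0.91), Rela and Tor1a, Cd38 with Ptchd4, Pik3ap1 (0.91 each) and Rps6ka1, Adora2a with D16Ertd472e (0.9), Klf6 and Aim1, and Ada with Ralgps1 (0.86), Stx6 and A130010J15Rik. Between members, r of Entpd1 with Nt5e was -0.95 over the treatment and -0.76 over the subset libraries. Entpd1 with Cd38 gave 0.03 and 0.66.

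Single DN cells were sequenced as 1 library per treatment, so there is no test between them, and intervals cover counting error only. After filtering, 2950 isotype and 2502 blockade cells remained, with median depths of 3650 and 3840 unique molecular identifiers (UMIs, each a counted transcript molecule) and 7 barcode sequences shared by both libraries. Entpd1 had 35 UMIs in isotype and 112 in blockade cells, 2.82 (95% Poisson interval 1.97 to 3.93) and 9.03 CPM (7.44 to 10.9). Cd38 had 61 and 195 UMIs, 4.92 (3.77 to 6.32) and 15.7 CPM (13.6 to 18.1). Adora2a had 264 and 438 UMIs, 21.3 (18.8 to 24) and 35.3 CPM (32.1 to 38.8). Nt5e was at 15.7 (13.6 to 18.1) and 18.2 CPM (15.9 to 20.8), and Ada at 9.28 (7.66 to 11.1) and 9.6 (7.95 to 11.5). The ratio of blockade to isotype was 3.2 for Entpd1 (2.17 to 4.82), 3.19 for Cd38 (2.38 to 4.33), 1.66 for Adora2a (1.42 to 1.94), 1.16 for Nt5e (0.952 to 1.41) and 1.03 for Ada (0.794 to 1.35). Cell makeup differed between the libraries: cells of the cluster led by Ramp1, described below, were 25.1% of isotype and 0.759% of blockade cells, and those of the Cxcr6-led cluster 4.78% and 26.8%. Red cell markers had 416 UMIs in isotype and 4651 in blockade cells, a summed 33.6 and 375 CPM. Over both libraries, 4413 of these UMIs lay in the Cxcr6-led cluster (1350 CPM), and every other cluster was at 10.7 to 77.1 CPM. Their part in the ratios was not tested. Within the Cxcr6-led cluster Entpd1 and Cd38 were not higher in blockade than in isotype cells, while in the cycling cells described below both were. The part of cell makeup in the ratios was not tested. Siglech had no UMI in any cell.

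The bulk DN libraries and the single-cell libraries went the same way for Entpd1 and different ways for Cd38. Cd38 had a ratio of 3.19 in the single cells, while the bulk difference was -0.42 and not called. Adora2a was higher in the single-cell blockade library and differed by 0.05 in bulk. Nt5e was lower in every bulk DN blockade library and had a single-cell ratio of 1.16 whose interval includes 1, or 1.28 (1.05 to 1.57) without 3 clusters with markers of other cell types.

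**Figure D4:**
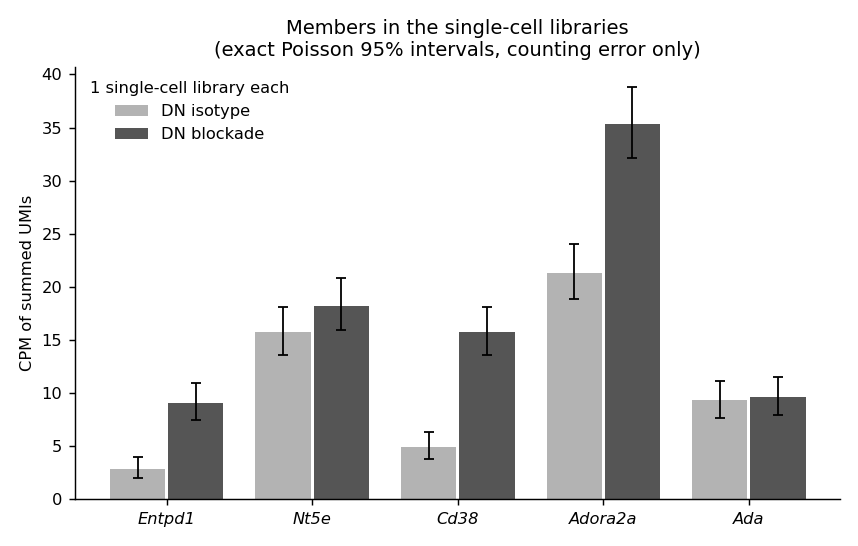
CPM of summed UMIs (y axis, from 0) of each gene in the DN isotype and DN blockade single-cell libraries, 1 library each, with exact Poisson 95% intervals for counting error only. The intervals of Entpd1, Cd38 and Adora2a did not overlap between the libraries, and those of Nt5e and Ada did.

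A UMI of Entpd1 was found in 1.02% of isotype and 3.6% of blockade cells, of Nt5e in 6.17% and 8.11%, of Cd38 in 1.97% and 6.51%, of Adora2a in 8.17% and 15.1%, and of Ada in 3.42% and 4.08%. With each cell reduced to 2000 UMIs, averaged over all possible draws and leaving out 251 isotype and 0 blockade cells, the shares were 0.468% and 1.4% for Entpd1, 0.899% and 2.87% for Cd38, 4.32% and 7.78% for Adora2a, 3.49% and 4.33% for Nt5e, and 1.7% and 1.57% for Ada. The 59 cells led by the keratin genes Krt8 and Krt18 had a median of 28900 UMIs. T cell transcripts were found in part of them, Cd3e in 32.2% and Cd8a in 28.8%, and whether members came with these was not tested. The keratin-led cells held an Entpd1 UMI in 8.47% and a Cd38 UMI in 22% of cells. Their levels were 2.9 CPM of Entpd1, 3.73 of Nt5e, 5.8 of Cd38, 2.07 of Adora2a and 14.9 of Ada. An Ada UMI was found in 33.9% of them, and whether these cells express the members was not tested. No member was detected in 81% of isotype and 67.9% of blockade cells, and 2 or more were rarely detected together.

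Clusters were made without the members and the pathway genes, and are called by their leading genes. Entpd1 had its highest level in 44 myeloid-like cells led by Lyz2, C1qa and C1qb (2 isotype and 42 blockade cells), at 83.5 CPM (59.4 to 114) and in 52.3% of cells. Cd38 was highest there too, at 72.8 CPM (50.4 to 102). A further 36 cells, led by the antigen-presentation genes H2-Aa and Cd74, held 16.1 CPM of Entpd1 and 24.1 of Cd38. In them 21 of 22 plasmacytoid markers were detected, all but the defining gene Siglech, with a summed level of 8360 CPM. Myeloid markers, which include Cd74, summed to 25700 CPM there, and Ccr7 was at 1230 CPM. Without these 2 clusters and the keratin-led one (139 cells), the ratio of blockade to isotype was 3.18 for Entpd1 (1.99 to 5.23), 2.95 for Cd38 (2.15 to 4.1), 1.81 for Adora2a (1.55 to 2.12), 1.28 for Nt5e (1.05 to 1.57) and 0.95 for Ada (0.704 to 1.28). Those clusters were taken out by a rule chosen after their genes were seen, and the ratios of Entpd1 and Cd38 moved from 3.2 and 3.19 by less than their intervals.

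Among the remaining clusters Entpd1 was highest in the 812 cells led by Cxcr6 and Isg20 (12.3 CPM, 8.77 to 16.7) and in 236 cells with cell cycle genes led by Stmn1 and Birc5 (12.1 CPM, 7.56 to 18.3), followed by 811 cells led by Gzma and Ccl5 (7.23 CPM, 4.42 to 11.2). It had 1 UMI in the 759 cells led by Ramp1 and Dapl1 (0.372 CPM), which also expressed Lef1. Within the Cxcr6-led cluster Entpd1 was at 14.2 CPM (5.7 to 29.2) in 141 isotype and 11.9 (8.21 to 16.8) in 671 blockade cells, and within the Gzma-led cluster at 9.13 (4.38 to 16.8) in 367 and 5.99 (2.87 to 11) in 444 cells. The intervals of both libraries overlapped in either cluster. In the cycling cells Entpd1 was at 2.77 CPM (0.336 to 10) in 89 isotype and 18.2 (11.1 to 28) in 147 blockade cells.

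Cd38 was at 22.1 CPM (17.3 to 27.8) in the Cxcr6-led cluster, 11.5 in the cycling cells, 11.2 in the Gzma-led and 1.86 in the Ramp1-led cluster. It was at 13.4 CPM (6.94 to 23.5) in 250 cells led by the interferon-stimulated gene Ifit3 and at 11 (7.58 to 15.5) in 735 cells led by the Ly49 genes Klra7 and Klra6, where Entpd1 was at 3.36 and 1.33. Cd38 was at 26.3 (14 to 45) in isotype and 21.3 (16.2 to 27.5) in blockade cells of the Cxcr6-led cluster. In the cycling cells it was at 5.55 in isotype and 15.4 CPM in blockade. It was likewise higher in blockade in the Gzma-led (9.13 and 12.6), Ifit3-led (6.82 and 14.7) and Klra7-led clusters (5.77 and 13.8). The same held for 639 cells led by Gzmm and Itm2a (3.57 and 11.1), but not for 415 cells led by Gm19705 and Usp18 (6.7 and 3.56). The intervals of both libraries overlapped in each of these clusters. Adora2a and Nt5e had another order of clusters. Adora2a was highest in the Klra7-led cluster (62.4 CPM, 53.8 to 72) and in the Ifit3-led one (57.1 CPM, 42.5 to 75.1), next at 45.2 CPM in the Gzma-led cluster, and at 5.95 CPM (3.4 to 9.66) in the Ramp1-led one. Nt5e was highest in the Ifit3-led cluster (31.3 CPM, 20.8 to 45.3), in 415 cells led by Gm19705 and Usp18 (30.8 CPM, 23.1 to 40.3) and in the Klra7-led cluster (28 CPM, 22.3 to 34.7), with overlapping intervals, and was detected at 8.23 CPM (4.61 to 13.6) in the cycling cells. Outside the 3 clusters with markers of other cell types, Ada ranged from 4.29 CPM (2.35 to 7.21) in the Cxcr6-led to 13 CPM (9.25 to 17.8) in the Klra7-led cluster. It was at 21.4 CPM (10.3 to 39.4) in the Lyz2-led and 14.9 (10.4 to 20.6) in the keratin-led cells.

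**Figure D5:**
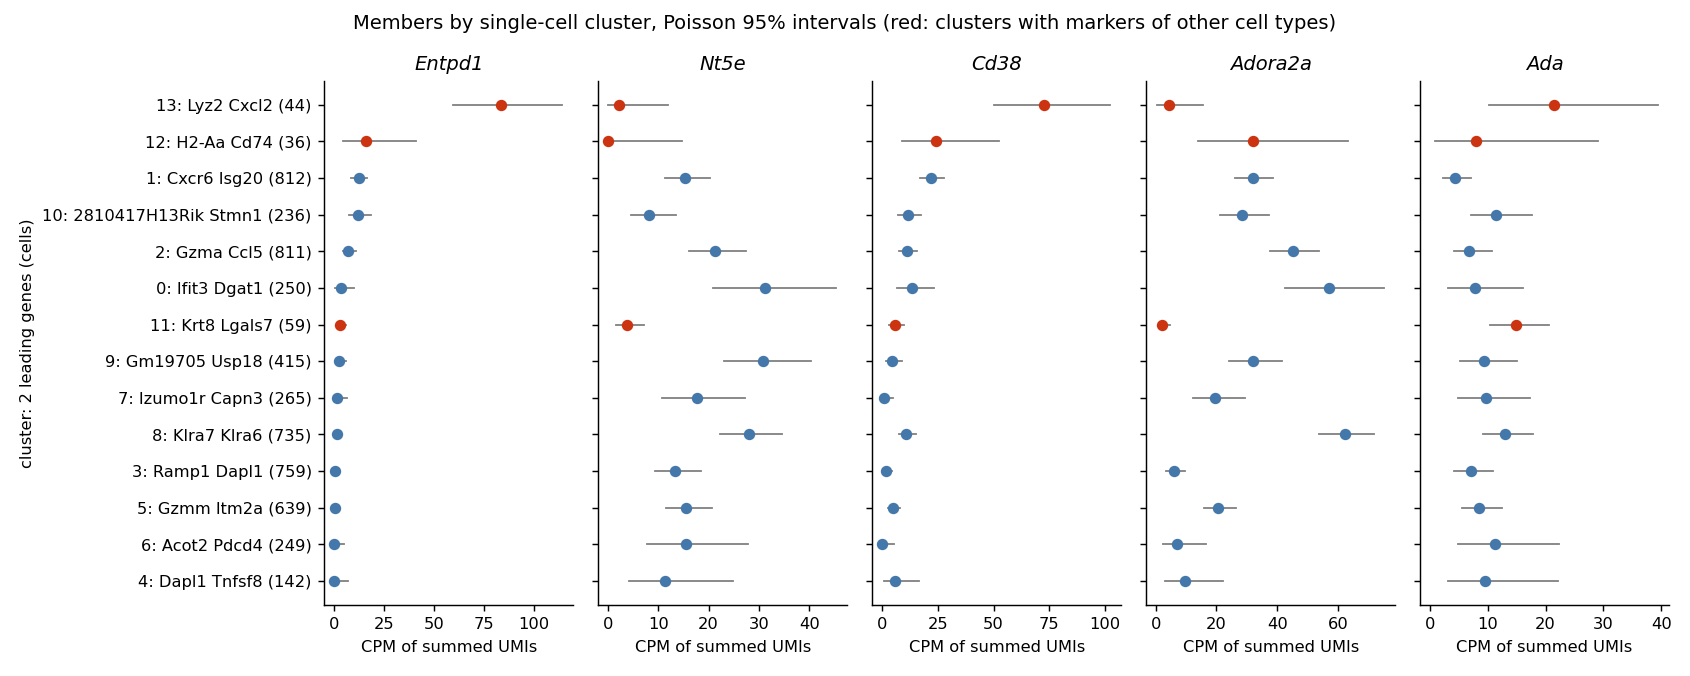
CPM of summed UMIs (x axes) of each gene in the 14 clusters (y axis, named by 2 leading genes with the number of cells), both libraries together, with exact Poisson 95% intervals; red marks the 3 clusters with markers of other cell types. Entpd1 peaks in the Lyz2-led cluster (83.5 CPM) and Adora2a in the Klra7-led cluster (62.4 CPM).

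Detection of Entpd1 beside the checkpoint genes was counted in the blockade library. A UMI of Entpd1 was found in 18.5% (11.7 to 27.1) of 108 cells with a Havcr2 UMI and in 2.92% (2.29 to 3.68) of 2394 cells without one, with median depths of 5280 and 3810 UMIs. The 44 myeloid-like cells of both libraries held 22 Havcr2 UMIs, beside 91 in the cycling and 48 in the Cxcr6-led cells. For Pdcd1 the shares were 5.29% (3.34 to 7.9) of 416 cells and 3.26% (2.54 to 4.11) of 2086 cells, at median depths of 3920 and 3830. Entpd1 and Nt5e were found together in 5 blockade cells, 2.46% of 203 cells with Nt5e against 3.7% of those without.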

How the data were processed

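RNA was measured in 26 bulk libraries and in single DN cells of 2 libraries. The bulk gene values are expected counts that the authors deposited, and per the submitters' processing notes, which give no versions or roles for them, TopHat, RSEM, DESeq and build mm9 were used. About 35.3% and 40.6% of their nonzero values were not whole, so they were rounded. The authors also deposited a normalised signal per gene, which equals the counts divided by 1 factor per gene and 1 per library and is used here only to compare genes within a library. Single-cell values are UMI counts that the authors deposited, made with Cell Ranger 1.3 and mm10 per the submitters' processing notes.

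The 5 members and the pathway lists were chosen with earlier results of these data known. In each experiment all libraries entered 1 fit of edgeR 4.0.16 (R 4.3.3, limma 3.58.1; filterByExpr, TMM, quasi-likelihood test), with Benjamini-Hochberg adjustment over the 12388 and 12710 genes tested and calls at an adjusted p under 0.05. The deposited subset table held 4 rows with a repeated name, which were left out. CPM use TMM factors, and Rn45s took 10.7 to 20.7% of the counts. Alternatives were DESeq2 1.42.0, RLE factors, no filter, no Rn45s, only the groups compared, replicate blocks and each library left out, and the fit was tested on simulated data. Named genes are the members, up to 4 called genes of each list and comparison with the smallest p, the 3 genes most like each member, and sort and marker genes, of which some are not reported here.

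Same-numbered DN libraries of both treatments, by their titles, deviated together over genes (r of 0.122, 0.383 and 0.184, all above 0.1). The labels do not say what these numbers mark, so the main fit has no pairing and the blocked value is given beside the DN result. By library name, the naive-like group has its own date, whose effect cannot be told apart from that of the subset.

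Cells were kept with 500 genes or more and a mitochondrial share of UMIs up to 10%, and were assigned to libraries by barcode suffix. Doublets were not called. Clusters were made with scanpy 1.11.5 and igraph 0.11.9 (2000 variable genes less those of the lists, 30 components, 15 neighbours, Leiden resolution 1.0). Intervals are exact, at 95%, computed with scipy 1.17.1, and a count of 0 allows 3 counts. Promoter sequences are from RefSeq, GRCm38.p6.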

Additional observations from a re-analysis of the deposited data

Results flagged for a closer look

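Nt5e in naive-like replicate 4 was at 245 CPM, far from the other 5 naive-like libraries, of which the highest was at 137. The gap to that library was 0.633 of the group's whole range. Such gaps were looked for in 10 groups of values, the 5 genes in naive-like and memory-like cells, and chance flags about 1 in 20. The same library held no Entpd1 count. Without naive-like replicate 4, memory-like replicate 2 and naive-like replicate 6 together, the Nt5e difference between memory-like and naive-like cells was -0.58 (edgeR adjusted p = 0.231), and it was not called with them either.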

How the results depend on the processing

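No called result reversed. Some differences that were not called changed sign, such as Nt5e between effector-like and memory-like cells (-0.48 to 0.18), Nt5e in DP cells (-0.29 to 0.23) and Ada in DN cells (-0.33 to 0.03). Of 320 values with 1 library left out, 297 kept their side of the threshold and 23 did not, and of 275 values under other settings 263 kept it and 12 did not. All 22 single-cell values moved by less than their intervals. Calls were lost for Entpd1, Cd38 and Adora2a only, and the cause was not tested. With the groups compared alone in the fit, fewer libraries set the spread: Cd38 between effector-like and naive-like cells was 1.13 (adjusted p = 0.0814), Entpd1 between memory-like and naive-like cells 2.45 (0.0636), Entpd1 between treatments in DN cells 0.86 (0.212) and Adora2a between DP and DN isotype cells 0.51 (0.0915). With the title number as a replicate block, Entpd1 in DN cells was 0.82 (0.0819), or 0.84 (0.151) on DN libraries alone, a fit chosen after seeing the data, and Adora2a was 0.52 (0.0584) after isotype and 0.54 (0.0529) after blockade. With the library name number as a replicate block, Entpd1 between memory-like and naive-like cells was 2.49 (0.218), Cd38 there 1.48 (0.0595), and Adora2a 0.52 (0.0569) and 0.54 (0.0548). In the subset, and between DP and DN libraries, those with the same title or name number did not all reach an r of 0.1 (-0.334 to 0.326). No other call of a member was changed by a block. A name block could not be fitted for blockade against isotype.

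Leaving out 1 library at a time, Entpd1 between memory-like and naive-like cells ranged from 2.18 to 2.72, Cd38 between effector-like and naive-like cells from 0.98 to 1.27, Entpd1 in DN cells from 0.63 to 0.99, and Adora2a between DP and DN cells from 0.4 to 0.72 after isotype and from 0.44 to 0.62 after blockade. The number of genes called after blockade in DN cells was 142, against 541 with DESeq2, 224 with no filter, 59 with the title block and 2 with only these groups. In DP cells it was 8, against 56, 17, 4 and 16. Between effector-like and memory-like cells it was 237, against 484 with DESeq2 and 123 with the title block, and between memory-like and naive-like cells 683, against 1195 with DESeq2 and 186 with the name block. With 1 library left out, these counts ranged from 22 to 229, from 3 to 9, from 105 to 215 and from 340 to 815, and between effector-like and naive-like cells from 484 to 1068 around 795, or 1319 without the 3 libraries that stood apart. The single-cell levels rest on 35 to 438 UMIs per gene and library.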

Other observations

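Some pathway genes had enough UMIs in the single DN cells to be read, where each treatment is 1 library and no test was made. These genes were chosen after their values were seen. Crem, a cyclic AMP-responsive transcription factor gene, was at 66.5 CPM (95% Poisson interval 62 to 71.2) in isotype and 162 (155 to 170) in blockade cells. Nampt, the rate-limiting enzyme gene of NAD salvage, was at 20.5 (18.1 to 23.2) and 51.9 (48 to 56.1). Rapgef4, the cyclic AMP sensor gene, was at 9.36 (7.74 to 11.2) and 3.47 (2.51 to 4.67), while Pde2a was at 47.1 (43.3 to 51) and 47.7 (44 to 51.8).

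Entpd1 and Cd38 were found together in part of the cells. In the blockade library, 24 of 163 cells with a Cd38 UMI held Entpd1 (14.7%, 9.67 to 21.1), against 66 of 2339 cells without one (2.82%, 2.19 to 3.58), at median depths of 4770 and 3790 UMIs. The myeloid-like cells held 39 Entpd1 and 34 Cd38 UMIs, and their part in this overlap was not tested. Entpd1 was found in 1.33% (0.432 to 3.07) of 377 blockade cells with an Adora2a UMI and in 4% (3.21 to 4.92) of 2125 without one.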
